A study of Mus musculus with 6 samples.

Results

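The genes described here are 33 genes of the lysosome, chosen by symbol and by the function of their products and not by any value. They comprise 6 lysosomal membrane proteins, 8 proteases, 9 glycosidases, 3 sulfatases, 5 lipid-degrading enzymes and activators, progranulin (Grn) and the transcription factor Tfeb. All 33 were among the 24060 genes of the count table, and all 33 passed the filter on low counts that left 16449 genes to be tested. RNA-seq was carried out on retinal ganglion cells (RGCs), the neurons whose axons form the optic nerve, from C57BL/6 mice, with no treatment named, at embryonic day 18 (E18) and postnatal day 5 (P5), with 3 samples at each age. The ages were chosen because RGCs extend axons readily at E18 and have lost that capacity by P5. Retinas were dissociated with papain, macrophages were removed with antibodies, and RGCs were held on dishes coated with an antibody against Thy1 (CD90). The labels number the samples 1, 3 and 4 at E18 and 6, 8 and 9 at P5 and do not say how many animals each one holds, so p-values measure the spread between these samples, which may be technical.

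Lysosomes are acidic organelles that degrade proteins, glycans, nucleic acids and lipids delivered by endocytosis and autophagy. Their hydrolases are made in the endoplasmic reticulum, tagged with mannose 6-phosphate or carried by other receptors, and activated at low pH behind a membrane densely coated with glycosylated proteins. Tfeb and its relatives Tfe3 and Mitf bind DNA elements built around the letters CACGTG in many lysosomal promoters, and loss of single hydrolases causes storage diseases in which neurons are often affected early.

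Total counts on genes ran from 81213639 to 114512853 per sample. The RGC marker Rbpms, an RNA-binding protein, was at 283, 276 and 319.8 CPM at E18 and at 329, 326 and 290.5 CPM at P5, where CPM stands for the count scaled by the TMM-normalized library size of its sample, and its levels overlapped between the ages (adjusted p = 0.392). Thy1, the protein used for the purification, was at 212, 217 and 312 CPM at E18 and at 499.5, 469 and 690.1 CPM at P5, and it was lower at E18 (log2 fold change -1.16 ± 0.19 SE, adjusted p = 0.00197). The 9 marker genes of dividing cells summed to 247, 67.1 and 19.6 CPM in E18 replicates 1, 3 and 4 and to 12.8 to 25.9 CPM at P5. E18 replicate 1 was thus the highest in these, and E18 replicate 3 also lay above E18 replicate 4 and all P5 samples. In RNA from a cell population, fewer cells of a type and less RNA per cell cannot be told apart.

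Promoter sequence was available in RefSeq (GRCm38.p6, 250 bases before to 50 bases after each start) for 31 of the 33 genes, all but Asah1 and Ctsb. The letters CACGTG, which read the same on both strands, were found in 13 of these 31 promoters (41.9%), against 9.18% of the 16803 genes of the table with a promoter sequence. The longer form GTCACGTG, searched on both strands and always holding CACGTG, was found in 10 of 31 (32.3%) against 3.29%. The palindrome TCACGTGA, which holds CACGTG as well, was found in 5 of 31 (16.1%) against 1.46%. Among 106 other genes of the lysosomal system, the lists of which are described further on, the shares were 24.5% for CACGTG, 17.0% for GTCACGTG and 11.3% for TCACGTGA. The stretches printed here lie upstream of the RefSeq start, are written in the direction of transcription and have CACGTG in capitals. Shown are 5 of the 6 genes with CACGTG that were lower at E18, all but Ctsl. Gla and Glb1 are shown beside them, as 2 of the 7 that carried the same letters and did not pass the test.
Lamp1 (chr8:13159088-13159160, plus strand, 4 copies, the first 61 bases before the start): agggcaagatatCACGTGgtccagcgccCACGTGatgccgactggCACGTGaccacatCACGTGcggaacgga
Ctsd (chr7:142388055-142388077, minus strand, the first of 2 copies, 245 bases before the start): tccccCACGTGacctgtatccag
Lgmn (chr12:102439124-102439153, minus strand, 49 bases before 1 of 2 listed starts): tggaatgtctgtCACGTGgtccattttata
Gaa (chr11:119267811-119267840, plus strand, 140 bases before the start): tttctgtgcgatCACGTGtttgactctgac
Naglu (chr11:101070009-101070038, plus strand, 73 bases before the start): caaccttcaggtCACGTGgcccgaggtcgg
Gla (chrX:134601182-134601244, minus strand, 2 copies, the first 227 bases before the start): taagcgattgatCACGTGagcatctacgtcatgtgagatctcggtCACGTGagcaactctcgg
Glb1 (chr9:114401018-114401047, plus strand, 48 bases before the start): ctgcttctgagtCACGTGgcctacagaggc

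The question put to the counts was how the RNA of each gene differed between E18 and P5. Of the 33 genes, 12 were lower at E18 (36.4%), 3 were higher at E18 (9.09%) and 18 did not pass an adjusted p of 0.05 in edgeR's quasi-likelihood test, adjusted over all genes tested. Over all genes tested, 22.5% were lower and 20.8% were higher at E18, and 43.4% passed in either direction, against 45.5% of the lysosomal genes. The share that passed was thus near that of all genes tested. The median log2 fold change, E18 over P5, was -0.11 for the 33 genes and 0.00 for all genes tested. The values of the 2 ages did not overlap for 17 of the 33 genes, 14 lower and 3 higher at E18. Over all 16449 genes tested, 9230 had no overlap in either direction (56.1%), 4694 lower and 4536 higher at E18. Summed over the 33 genes, the level was 2184, 2227 and 2299.9 CPM at E18 and 2788, 2742 and 3399 CPM at P5, without overlap, and Psap alone made up 363 to 808 CPM of these sums. The count lower at E18 was 7 without E18 replicate 1 and 16 without P5 replicate 8, and in the same fits the share of all genes lower at E18 was 16.4% and 27.8%.

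**Figure D1:**
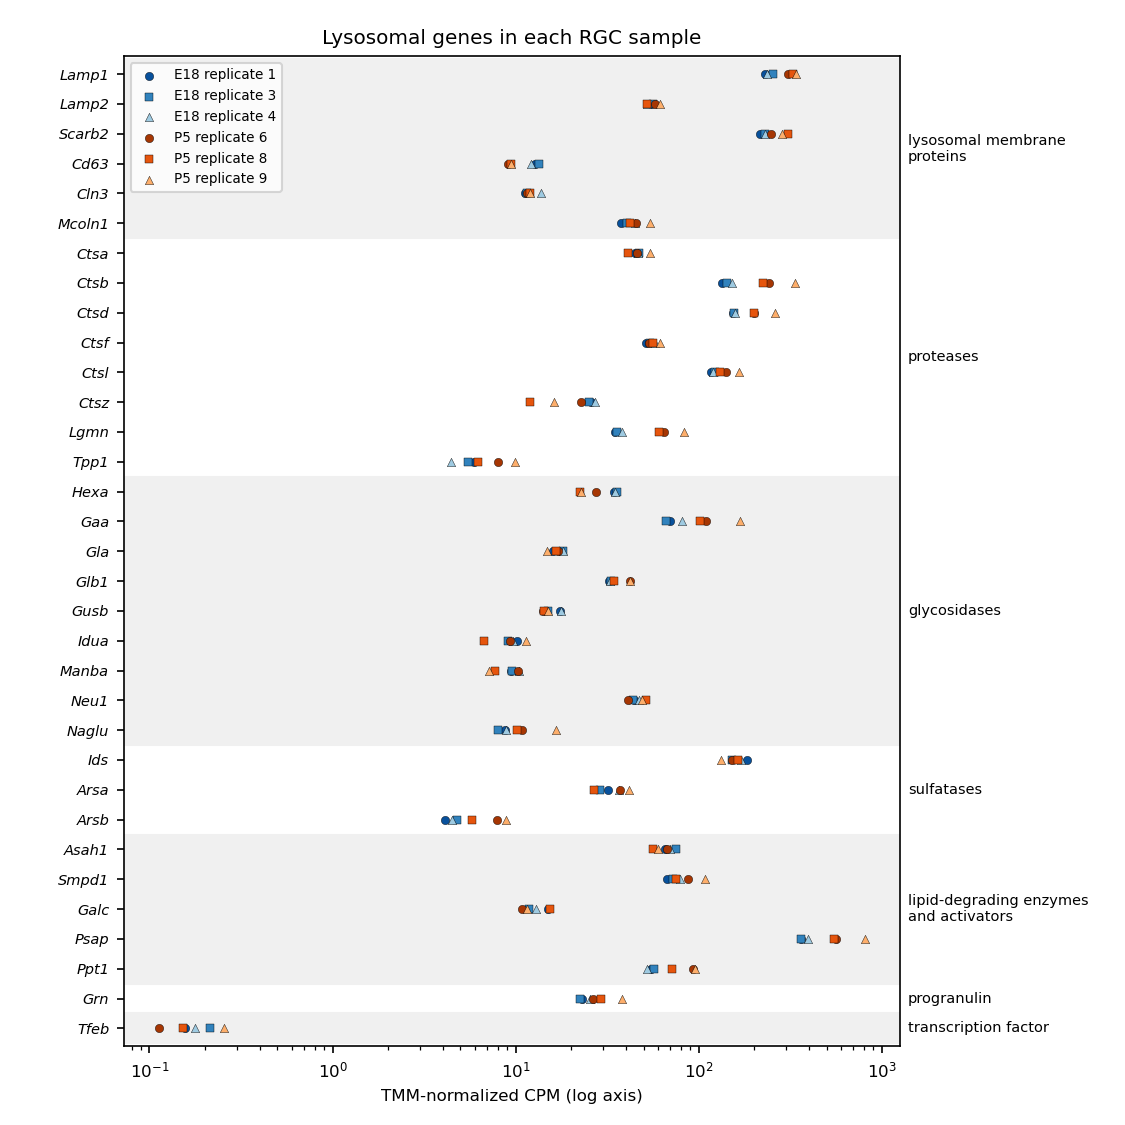
TMM-normalized CPM on a log axis for each of the 33 genes (rows, grouped by role) in each of the 3 E18 samples (blue) and 3 P5 samples (orange). The ages separate for genes such as Psap, Ctsb, Lgmn and Gaa, whose P5 points all lie to the right, and for Cd63, Ctsz and Hexa, whose P5 points all lie to the left, while Tfeb sits below 0.3 CPM in every sample.

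Per kilobase of the RefSeq transcript, the scale on which levels of different genes can be compared, the same 5 genes led at both ages. Mean CPM per kb at E18 and P5 was 141 and 241 for Psap, 108 and 146 for Lamp1, 73.4 and 104 for Ctsd, 60.8 and 74.1 for Ctsl and 48.2 and 59.6 for Scarb2. These 5 genes encode a lipid-enzyme activator, the main coat protein of the lysosomal membrane, an aspartic and a cysteine protease, and a receptor that carries an enzyme to the lysosome. Lgmn stood at rank 14 of 33 at E18 and at rank 9 at P5, whereas Ids stood at rank 6 and at rank 11. Arsb and Tpp1, at 1.11 to 2.26 CPM per kb, were the lowest of the enzymes, and Tfeb was the lowest of the 33 genes at 0.078 and 0.074 CPM per kb.

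Of the 6 membrane proteins, Lamp1 and Scarb2 were lower and Cd63 was higher at E18. Lamp1 (mm10, chr8:13159161-13175338), a heavily glycosylated protein of the lysosomal membrane, was at 231, 255 and 235 CPM at E18 and at 308, 327 and 340.2 CPM at P5. All P5 samples lay above all E18 samples, a 1.35-fold higher level at P5 (log2 fold change -0.44 ± 0.085 SE, adjusted p = 0.00444). Lamp2, its relative, which also serves in chaperone-mediated autophagy, was at 52.2 to 56.5 CPM at E18 and at 52.4 to 61.8 CPM at P5, with overlapping values (-0.07 ± 0.095, adjusted p = 0.584). Scarb2, the receptor that carries glucocerebrosidase to the lysosome, was at 217, 231 and 231 CPM at E18 and at 248, 307 and 286 CPM at P5. Its groups did not overlap and the level was 1.24-fold higher at P5 (-0.31 ± 0.099, adjusted p = 0.0344), but the call was lost without any one of E18 replicates 1, 3 and 4 or P5 replicate 9. Cd63, a tetraspanin of late endosomes and exosomes, was at 12.8, 13.4 and 12.1 CPM at E18 and at 9.03, 9.50 and 9.42 CPM at P5. It was 1.37-fold higher at E18 (0.45 ± 0.12, adjusted p = 0.0141), a call lost without E18 replicate 1 or 3, and reads of its pseudogene Cd63-ps could have been counted on it. Cln3, the protein altered in juvenile Batten disease, was at 11.3 to 13.7 CPM and Mcoln1, the calcium channel TRPML1, at 37.8 to 54.1 CPM over all 6 samples, both with overlapping ages.

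Among the 8 proteases, 5 were lower and 1 was higher at E18. Ctsb (chr14:63122462-63145923), the cysteine protease cathepsin B, was at 134, 142 and 153 CPM at E18 and at 241, 225 and 334 CPM at P5, a 1.86-fold higher level at P5 (log2 fold change -0.90 ± 0.15 SE, adjusted p = 0.00209). Lgmn (chr12:102394084-102439813), legumain, which cuts after asparagine and processes cathepsins to their mature chains, was at 34.8, 35.9 and 38.3 CPM at E18 and at 64.4, 60.8 and 83.2 CPM at P5. This 1.91-fold higher level at P5 was the largest of the 33 genes in either direction (-0.94 ± 0.13, adjusted p = 0.000999). Ctsd (chr7:142375911-142388038), the aspartic protease cathepsin D, was at 154, 157 and 157 CPM at E18 and at 201, 201 and 259.8 CPM at P5, 1.41-fold higher at P5 (-0.50 ± 0.11, adjusted p = 0.0085). Its E18 samples had a coefficient of variation of 1.14%, and all P5 samples lay above them. Ctsl, cathepsin L, was at 116, 123 and 119.8 CPM at E18 and at 141, 132 and 165 CPM at P5 (-0.29 ± 0.10, adjusted p = 0.0491). Tpp1, the tripeptidyl peptidase lost in late-infantile neuronal ceroid lipofuscinosis, was at 5.96, 5.48 and 4.44 CPM at E18 and at 8.05, 6.23 and 9.89 CPM at P5 (-0.61 ± 0.20, adjusted p = 0.0403). For both genes the ages did not overlap, but both calls were lost without any one of the E18 samples or without P5 replicate 6 or 9, and the value of Ctsl was -0.19 without P5 replicate 9.

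Ctsz, cathepsin Z, a carboxypeptidase, ran the other way from the remaining cathepsins that passed. It was at 25.8, 25.03 and 27.1 CPM at E18 and at 22.8, 11.99 and 16.2 CPM at P5, 1.53-fold higher at E18 (log2 fold change 0.61 ± 0.20 SE, adjusted p = 0.0396). The P5 samples were spread widely, with a coefficient of variation of 32.0% against 3.97% at E18. The call was lost without any E18 sample and without P5 replicate 8 or 9, and the value was 0.39 without P5 replicate 8. Ctsa, the protective protein that stabilizes beta-galactosidase and neuraminidase, was at 41.0 to 54.2 CPM (-0.02 ± 0.11, adjusted p = 0.889), and Ctsf, another cysteine protease, was at 51.4 to 61.3 CPM (-0.07 ± 0.095, adjusted p = 0.571) over all 6 samples. Exons of Ctsb share 774 bases with Fdft1 on the other strand, and exons of Ctsa share bases with Pltp and Neurl2, so their counts are uncertain to that extent. The same holds for Lamp1 (249 bases with Grtp1), Ppt1 (129 with Cap1) and Cln3 (442 with Apobr), and for Ctsz, Idua and Grn. Glb1 shares 165 bases with Tmppe on the same strand.

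The 9 glycosidases, which take sugars off glycoproteins, glycolipids, glycogen and glycosaminoglycans, were divided, with 2 lower, 1 higher and 6 not past the threshold. Gaa (chr11:119267887-119285454), the acid glucosidase that breaks down glycogen, was at 69.8, 66.1 and 81.0 CPM at E18 and at 109, 101 and 169 CPM at P5, 1.75-fold higher at P5 (log2 fold change -0.81 ± 0.19 SE, adjusted p = 0.00918). Naglu, an enzyme of heparan sulfate breakdown, was at 8.80, 8.06 and 8.88 CPM at E18 and at 10.9, 10.1 and 16.7 CPM at P5 (-0.55 ± 0.19, adjusted p = 0.0478). Both genes had no overlap between the ages, and in both P5 replicate 9 stood well above the other P5 samples. Without P5 replicate 9 the value of Naglu was -0.29, and its call was also lost without any E18 sample or P5 replicate 6. Hexa (chr9:59539540-59565109), the alpha subunit of beta-hexosaminidase and the gene of Tay-Sachs disease, was at 34.4, 35.9 and 34.8 CPM at E18 and at 27.5, 22.4 and 22.6 CPM at P5. It was 1.45-fold higher at E18 (0.54 ± 0.11, adjusted p = 0.00566), and its exons share 255 bases with Tmem202 on the other strand. Glb1, beta-galactosidase, was at 32.4, 33.4 and 32.8 CPM at E18 and at 42.3, 34.4 and 42.1 CPM at P5. Its values did not overlap, yet it missed the threshold (-0.27 ± 0.11, adjusted p = 0.0724) and passed it without P5 replicate 8 (adjusted p = 0.00393, with a range of 0.00393 to 0.196 over the alternatives). The other 5 had overlapping ages and log2 fold changes between -0.07 for Neu1, a sialidase, and 0.22 for Manba, beta-mannosidase, with Gla, Gusb and Idua in between.

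Of the 3 sulfatases, Arsb alone passed. Arsb, which removes sulfate from dermatan sulfate, was at 4.11, 4.80 and 4.52 CPM at E18 and at 7.94, 5.8 and 8.84 CPM at P5, 1.68-fold higher at P5 (log2 fold change -0.75 ± 0.19 SE, adjusted p = 0.0134). All P5 samples lay above all E18 samples, and the adjusted p was 0.051 without E18 replicate 1, with a range of 0.000819 to 0.051 over the alternatives. Ids, the X-linked iduronate sulfatase of Hunter syndrome, was at 184, 153 and 171 CPM at E18 and at 153, 164 and 132 CPM at P5, with overlapping ages (0.18 ± 0.11, adjusted p = 0.225). Arsa, which acts on sulfatide, a myelin lipid, was at 26.9 to 41.4 CPM over all samples (-0.11 ± 0.16, adjusted p = 0.606), and an antisense transcript, C230037L18Rik, covers 18.8% of its exon bases.

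Among the 5 genes of lipid breakdown, Psap and Ppt1 were lower at E18. Psap (chr10:60277627-60302597), whose product is cut into the saposins that present sphingolipids to their hydrolases, was at 363, 364 and 394 CPM at E18 and at 564, 548 and 808 CPM at P5. It was the most abundant of the 33 transcripts per kilobase and was 1.71-fold higher at P5 (log2 fold change -0.78 ± 0.15 SE, adjusted p = 0.00384). Ppt1 (chr4:122836242-122859175), which takes palmitate off proteins, was at 55.0, 57.2 and 52.3 CPM at E18 and at 93.3, 71.7 and 95.05 CPM at P5, 1.58-fold higher at P5 (-0.66 ± 0.12, adjusted p = 0.00326). Neither gene overlapped between the ages. Smpd1, acid sphingomyelinase, was at 67.0 to 78.8 CPM at E18 and at 75.0 to 108 CPM at P5 (-0.31 ± 0.14, adjusted p = 0.0987). Asah1, acid ceramidase, was at 65.2 to 75.6 CPM at E18 and at 56.6 to 67.3 CPM at P5 (0.19 ± 0.10, adjusted p = 0.154), and Galc, the galactosylceramidase lost in Krabbe disease, was at 10.9 to 15.4 CPM over all samples (0.07 ± 0.17, adjusted p = 0.752).

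Grn, progranulin, a secreted protein that reaches the lysosome and is cut there into granulins, was at 23.1, 22.4 and 25.4 CPM at E18 and at 26.4, 29.2 and 38.4 CPM at P5. Its values did not overlap, but it fell just short of the threshold (log2 fold change -0.41 ± 0.15 SE, adjusted p = 0.0517, with a range of 0.0291 to 0.160 over the alternatives, of which 7 of 14 passed). Tfeb, the transcription factor of the list, was at 0.157, 0.214 and 0.177 CPM at E18 and at 0.113, 0.152 and 0.255 CPM at P5, with overlapping ages (0.08 ± 0.42, adjusted p = 0.892), so a change of its RNA could not be measured closely at this level.

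**Figure D2:**
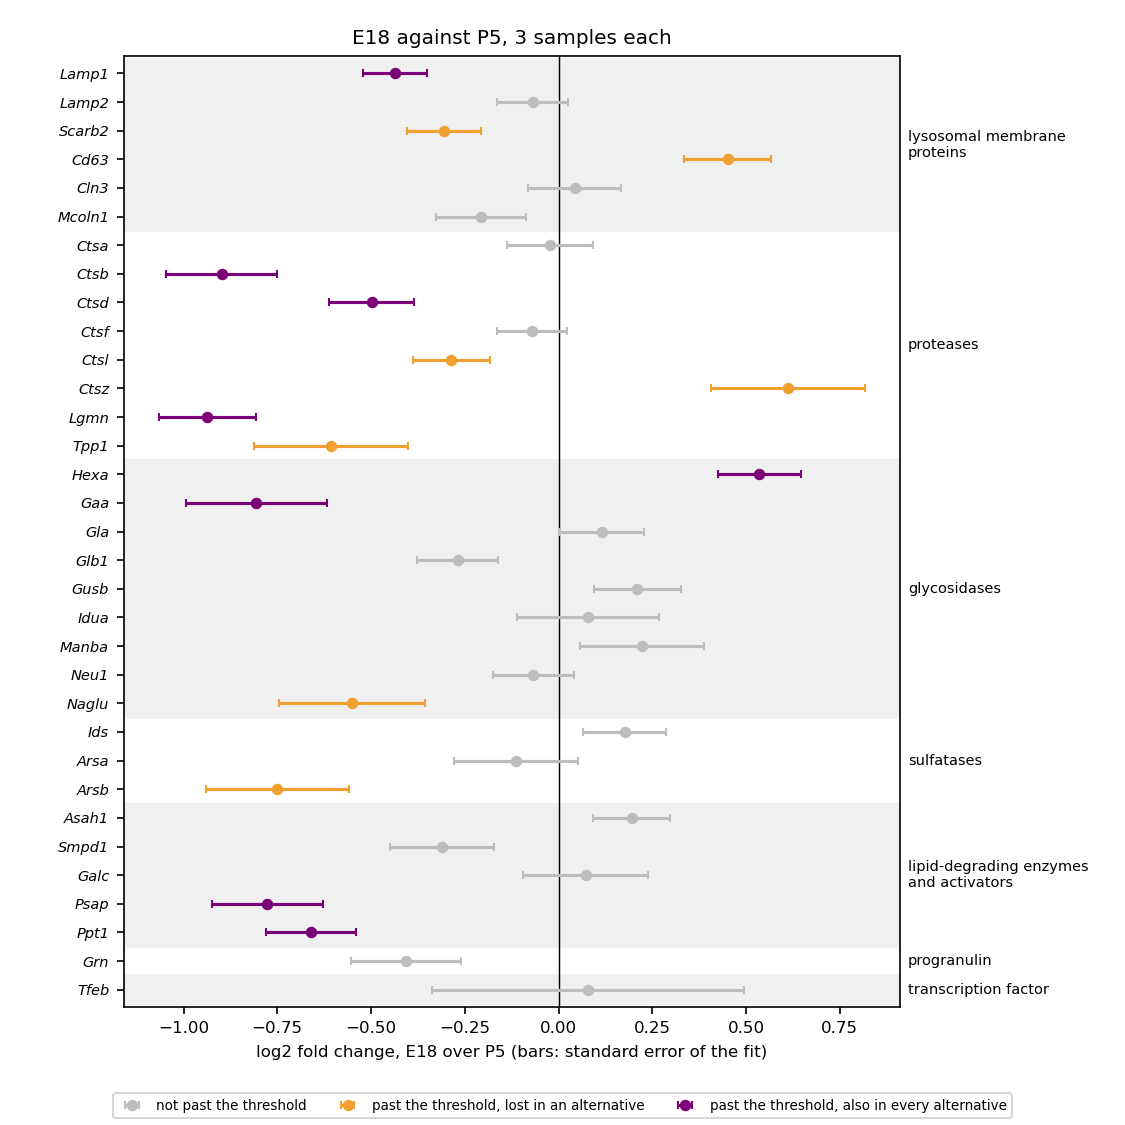
Log2 fold change, E18 over P5, of each of the 33 genes with the standard error of the fit (bars) from 3 samples at each age, where values left of 0 are lower at E18. Purple genes passed the threshold in the reported fit and in all 14 alternative fits (Lamp1, Ctsb, Ctsd, Lgmn, Hexa, Gaa, Psap and Ppt1), orange genes lost it in at least 1, and grey genes did not pass.

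Read against the promoters, 6 of the 13 genes with CACGTG were lower at E18, namely Lamp1, Ctsd, Ctsl, Lgmn, Gaa and Naglu. None of these 13 was higher at E18, and 7 did not pass, namely Arsa, Cln3, Ctsa, Ctsf, Gla, Glb1 and Mcoln1. Of the 18 genes with a promoter sequence but without these letters in it, 5 were lower, 3 were higher and 10 did not pass. Over all genes tested, whatever their promoter, 22.5% were lower and 20.8% were higher at E18. The shares among all genes of the table with CACGTG were not counted. The median log2 fold change was -0.27 with the letters and 0.00 without them. Lamp1, with 4 copies in 73 bases, and Gla, with 2 copies in 63 bases, differed in this respect, at -0.44 and 0.11. Psap, Ppt1, Scarb2, Arsb and Tpp1 were lower at E18 without CACGTG in the window searched. Ctsb, also lower, had no promoter sequence and is left out of this split. The calls of Ctsl and Naglu were lost in 8 and 7 of 14 alternative fits. Of the 10 genes with GTCACGTG, Lamp1, Ctsd, Lgmn and Naglu were lower and the others did not pass. Of the 5 with TCACGTGA, Ctsd alone was lower, while Cln3, Ctsa, Gla and Mcoln1 did not pass. In Ctsd the letters TCACGTGA lie in the copy 98 bases before the start, which is not printed above. A link between these letters and the age difference was not tested.

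The samples were less alike at P5 than at E18. The median coefficient of variation of the 33 genes was 5.75% at E18 and 15.03% at P5, and it was larger at P5 for 29 of 33. Over all genes tested the medians were 7.94% and 14.8%, and it was larger at P5 for 11828 of 16449. P5 replicate 9 held the highest P5 value for 22 of the 33 genes (66.7%) and for 11 of the 12 lower at E18 (91.7%), against 33.2% of all genes tested and 62.7% of all genes lower at E18. P5 replicate 8 held the lowest P5 value for 19 of the 33 (57.6%) and for 75% of the 12 lower at E18, against 39.2% of all genes tested and 65.5% of all genes lower at E18. Relative to the mean log2 level of P5, the median gene of the list stood 0.14 higher in P5 replicate 9 and at -0.12 in P5 replicate 8. Thy1 had the same order among the P5 samples as the sum of the 33 genes, with the highest value in P5 replicate 9 and the lowest in P5 replicate 8. The part of these sample differences in the age difference was not tested beyond leaving each sample out, and without P5 replicate 9 the calls numbered 10 of 33 (30.3%), against 32.3% of all genes in the same fit.

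**Figure D3:**
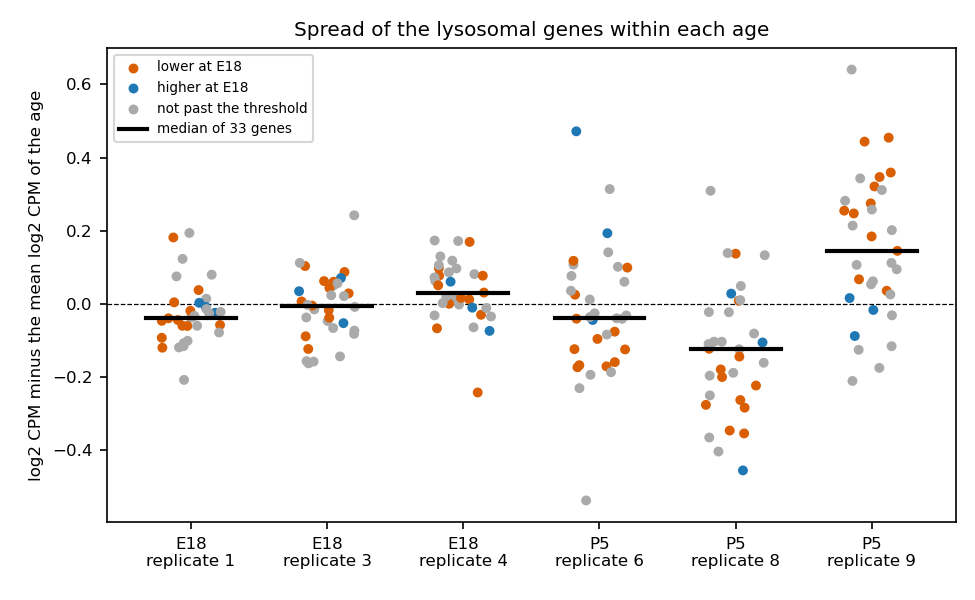
For each sample, the log2 CPM of each of the 33 genes minus the mean log2 CPM of its age, colored by the call between the ages, with the median over the 33 genes as a black line. The E18 medians lie between -0.04 and 0.03, whereas P5 replicate 8 lies at -0.12 and P5 replicate 9 at 0.14.

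Other genes of the lysosomal system were taken as 7 lists, 137 genes in all, of which 136 were tested. Of these, 47 were lower at E18 (34.6%), 16 were higher (11.8%) and 73 did not pass, and the median log2 fold change was -0.13. In either direction 46.3% passed, and these shares stand beside the 22.5% lower, 20.8% higher and 43.4% in either direction of all genes tested. The genes named from each list are those with the largest difference in each direction that passed the test, did not overlap between the ages and had a mean of at least 10 CPM, unless said otherwise.

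The V-type proton pump, which acidifies the lysosome and also synaptic vesicles, had 12 of 19 genes lower at E18, 2 higher and 5 not past the threshold, with a median log2 fold change of -0.37. The summed level of its genes was 2416 to 2608 CPM at E18 and 3141 to 3846 CPM at P5. Atp6v1g2, the G subunit found mainly in neurons, was at 19.0, 19.4 and 21.7 CPM at E18 and at 56.3, 47.6 and 79.3 CPM at P5 (-1.61 ± 0.18 SE). Atp6v1g1, the widely expressed G subunit, moved the other way, at 172, 181 and 177.4 CPM at E18 and at 145, 134 and 130.3 CPM at P5 (0.38 ± 0.083, adjusted p = 0.00741). A like pair, chosen after its values were seen, was the e subunits of the membrane part. Atp6v0e2 was lower at E18 (-0.75 ± 0.14, adjusted p = 0.00369) and Atp6v0e was higher (0.62 ± 0.14, adjusted p = 0.00809). Atp6v1c1, a subunit of the cytosolic part, was at 97.0 to 101 CPM at E18 and at 139 to 213 CPM at P5 (-0.83 ± 0.14, adjusted p = 0.00246).

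Of 32 other acid hydrolases and activators, 10 were lower, 2 were higher and 20 did not pass, with a median of -0.04. Siae, a sialic acid esterase, was at 7.32, 7.29 and 8.03 CPM at E18 and at 17.3, 11.5 and 17.9 CPM at P5 and was lower at E18 (log2 fold change -1.05 ± 0.18 SE). Npc2, which hands cholesterol to Npc1 inside the lysosome, was at 61.8, 64.3 and 63.6 CPM at E18 and at 33.6, 30.1 and 25.7 CPM at P5, higher at E18 (1.09 ± 0.11). Npc1, the membrane partner of Npc2 and named after its values were seen, was at 67.4 to 70.7 CPM at E18 and at 72.6 to 89.3 CPM at P5, with no overlap and no call (-0.25 ± 0.10, adjusted p = 0.0714). Pla2g15, a lysosomal phospholipase, was higher at E18 (0.35 ± 0.12, adjusted p = 0.0392), a call lost without E18 replicate 3 or 4 or P5 replicate 6 or 9. Among 25 other membrane proteins and transporters, 6 were lower and 3 were higher, with a median of -0.02. Abcb9, a peptide transporter, and Tmem175, a potassium and proton channel, were lower at E18 (-0.998 ± 0.18 and -0.94 ± 0.25). Tmem175 was spread widely at P5, at 33.5, 20.7 and 46.5 CPM, and its call was lost without E18 replicate 3 or P5 replicate 6. Slc15a4, a histidine and peptide transporter, and Laptm4a were higher (0.57 ± 0.11 and 0.27 ± 0.083). The call of Laptm4a was lost without any one of the E18 samples or P5 replicate 9.

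**Figure D4:**
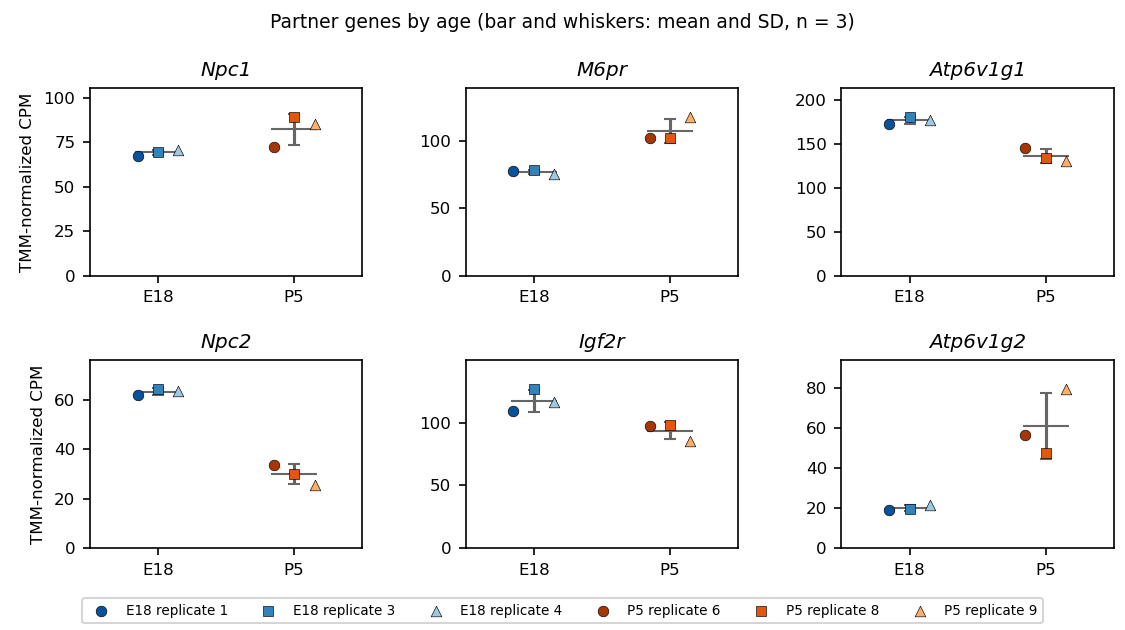
TMM-normalized CPM in each sample for 3 pairs of partner genes, one pair per column, with the mean and SD of the 3 samples at each age; each panel has its own axis from 0. Npc2, Igf2r and Atp6v1g1 were higher at E18 and M6pr and Atp6v1g2 were lower, while Npc1 did not pass the test.

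Genes that deliver enzymes to the lysosome went both ways, with 7 of 16 lower, 4 higher and 5 not past the threshold. Of the receptors for mannose 6-phosphate, M6pr, the cation-dependent one, was at 77.4, 78.3 and 75.5 CPM at E18 and at 102, 102 and 118 CPM at P5 and was lower at E18 (log2 fold change -0.48 ± 0.091 SE, adjusted p = 0.00393). Igf2r, the cation-independent one, named after its values were seen, was at 109, 127 and 117 CPM at E18 and at 97.1, 97.99 and 85.9 CPM at P5 and was higher at E18 (0.33 ± 0.097, adjusted p = 0.0242), a call lost without E18 replicate 3 or 4 or P5 replicate 9. Sorl1, a sorting receptor of neurons, was at 37.7, 37.4 and 47.1 CPM at E18 and at 108, 79.9 and 129 CPM at P5 (-1.38 ± 0.18). Gga2, an adaptor that packs these receptors at the Golgi, and Cln8, which moves new enzymes out of the endoplasmic reticulum, were higher at E18 (0.82 ± 0.14 and 0.42 ± 0.10), and the call of Cln8 was lost without E18 replicate 4.

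Of the relatives and the repressor of Tfeb, 3 of 4 were tested and 1 passed, while Tfec was at or below 0.032 CPM in every sample and was not tested. Tfe3 was at 21.9, 23.2 and 23.0 CPM at E18 and at 18.2, 23.9 and 20.1 CPM at P5, with overlapping ages (log2 fold change 0.13 ± 0.12 SE, adjusted p = 0.413). Per kilobase, Tfe3 was at 6.70 and 6.11 CPM per kb at E18 and P5, Mitf at 2.005 and 3.05 and Tfeb at 0.078 and 0.074. Zkscan3, a repressor of lysosomal and autophagy genes, was at 46.6, 48.3 and 51.4 CPM at E18 and at 40.7, 38.3 and 34.3 CPM at P5, higher at E18 (0.37 ± 0.10, adjusted p = 0.0176), a call lost without E18 replicate 3 or 4.

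Among 17 genes of nutrient sensing at the lysosome, 5 were lower and 1 was higher, but the count lower was 1 without E18 replicate 1. Rragd and Rragb, GTPases that bring mTORC1 to the lysosome, were lower at E18 (log2 fold change -0.56 ± 0.097 and -0.43 ± 0.12 SE), and Fnip2, a partner of folliculin, was higher (0.54 ± 0.11). The call of Rragb, unlike that of Rragd, was lost without E18 replicate 1 or 3 or P5 replicate 6 or 9. Of 24 autophagy genes, 7 were lower and 3 were higher. Optn, an autophagy receptor, was at 35.8, 37.2 and 41.1 CPM at E18 and at 72.9, 76.5 and 90.5 CPM at P5 (-1.07 ± 0.11), and Atg16l1, which guides the lipidation of LC3, was lower as well (-0.65 ± 0.11). Ulk1, the kinase that starts autophagy, and Atg4b, a protease of the LC3 family, were higher at E18 (0.47 ± 0.12 and 0.47 ± 0.099), and the call of Ulk1 was lost without E18 replicate 1.

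**Figure D5:**
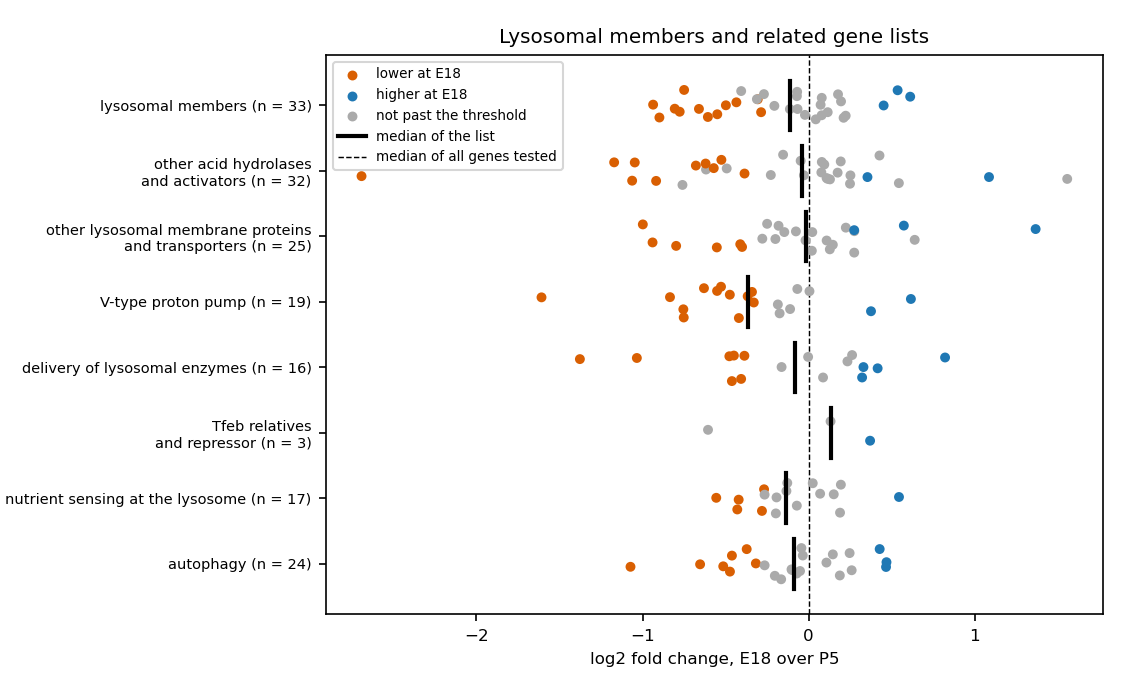
Log2 fold change, E18 over P5, of each tested gene (points, colored by call) in the 33 lysosomal genes and the 7 related lists, with the median of each list as a black bar and that of all genes tested as a dashed line. The proton pump has the lowest median, at -0.37, and the list of Tfeb relatives the highest, at 0.13 over 3 genes.

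Lysosomal genes are strongly expressed by microglia and macrophages, so markers of these cells were read in the same samples. The 12 microglial markers summed to 2.26 to 3.28 CPM at E18 and to 1.95 to 2.49 CPM at P5, and of the 8 tested, none was lower and 1 was higher at E18. The most abundant of them, Aif1 and P2ry12, were at 0.575 to 1.013 CPM and at 0.338 to 0.580 CPM, Cx3cr1 was at 0.085 to 0.173 CPM, and Tmem119 was at 0 in 4 of 6 samples. Ctss, the cathepsin typical of these cells, was at 0.041 to 0.276 CPM. The 6 markers of other macrophages summed to 1.28 to 1.54 CPM at E18 and to 2.44 to 4.85 CPM at P5. Lyve1, Mrc1 and Lyz2 of this list were lower at E18, Pf4 was listed at 0 in every sample, and Lyve1, the most abundant, reached 3.16 CPM. These macrophage markers thus moved in the same direction as the 12 lysosomal genes lower at E18, whose levels ran from 4.11 to 8.84 CPM for Arsb to 363 to 808 CPM for Psap, and their part in the difference was not tested. The 10 markers of Müller glia and astrocytes summed to 448 to 486 CPM at E18 and to 390 to 412 CPM at P5, mostly Glul, with 2 lower and 2 higher of 9 tested. Markers of endothelial cells and pericytes summed to 16.5 to 72.8 CPM at E18 and to 14.6 to 17.9 CPM at P5, and at E18 the sum was mostly Kdr, which was at 14.1 to 69.5 CPM there and at 4.79 to 11.3 CPM at P5 and was higher at E18 (log2 fold change 2.68 ± 0.55 SE). Rgs5, Pecam1 and Tek of this list, each at or below 3.64 CPM in every sample, were lower at E18 (-4.36 ± 0.37, -1.81 ± 0.26 and -1.80 ± 0.31), as the 12 lysosomal genes were, and their part in that difference was not tested. Markers of the retinal pigment epithelium summed to 3.98 to 5.88 CPM over all samples. The 9 amacrine markers summed to 975 to 1286 CPM at E18 and to 1147 to 1241 CPM at P5, bipolar markers to 49.7 to 74.3 and to 69.9 to 97.4 CPM, and photoreceptor markers to 2.66 to 10.6 and to 2.53 to 4.02 CPM. The 11 RGC markers summed to 5062 to 6026 CPM at E18 and to 6181 to 7650 CPM at P5. Nefl, which was lower at E18, alone made up 1636 to 2134 CPM of this sum at E18 and 2361 to 3462 CPM at P5. Of these 11 markers, 5 were lower at E18, 2 were higher and 4 did not pass. The 2 higher at E18 were Isl1 (log2 fold change 1.10 ± 0.15 SE, adjusted p = 0.000857) and Sncg (0.40 ± 0.084, adjusted p = 0.00599).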

How the data were processed

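Raw read counts per gene and sample, deposited by the authors, were used. The authors depleted ribosomal RNA (the labels name polyA RNA), sequenced paired-end reads, aligned them to mm10 with STAR and counted RefSeq genes with HT-seq. The strand setting is not given in the sources used here, so reads shared by overlapping genes are uncertain. The deposited normalized counts and the columns of the authors' own EdgeR comparison (fold changes, p-values and false discovery rates) were not used. The column taken as E18 replicate 1 also bears the numbers 2 and 5.

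TMM scaling, the expression filter and the quasi-likelihood F test came from edgeR 4.0.16 (R 4.3.3), with Benjamini-Hochberg adjustment over 16449 genes and a threshold of 0.05. Standard errors belong to the fitted log2 fold changes. The test was tried on simulated counts first. With 3 samples against 3, an exact permutation test cannot go below 0.1. Depth was 81213639 to 114512853 counts per sample, and the spread between samples limits precision. Genes were located by the GENCODE annotation of mm10. The named genes are all 33 lysosomal genes, the 2 most changed each way per related list (past the threshold, no overlap, at least 10 CPM), Rbpms, Thy1 and the 2 most abundant microglial markers. The values of 1 gene that this rule names are not reported here. The genes and lists were chosen with earlier results of these data known. Alternatives were DESeq2 1.42.0, limma-voom (limma 3.58.1), edgeR's exact and likelihood ratio tests, other scalings and filters, and leaving out each sample.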

Additional observations from a re-analysis of the deposited data

How the results depend on the processing

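No paired analysis was possible because the E18 and P5 samples share no replicate number. Of the 15 lysosomal genes past the threshold, 8 passed in all 14 alternatives and none changed direction in any. Leaving out 1 sample gave 7 to 16 lysosomal genes lower and 1 to 3 higher at E18, 1 to 3 other acid hydrolases higher, 2 to 5 other membrane proteins higher, 1 to 3 delivery genes higher (4 with all samples), 0 to 1 Tfeb relatives lower and 0 to 1 higher, 1 to 7 nutrient sensing genes lower and 1 to 2 higher, and 4 to 7 autophagy genes lower. These fits hold fewer samples. Without a filter on low counts, 3 nutrient sensing genes were lower. With every sample kept, calls were lost for Ctsl (upper-quartile scaling, limma-voom and no filter), Naglu (upper-quartile scaling and limma-voom) and Tpp1 (upper-quartile scaling), and Grn passed with DESeq2, library size scaling, the exact and likelihood ratio tests and the filter at 1 CPM. Leaving out P5 replicate 8 added Glb1, Grn, Mcoln1 and Smpd1 and dropped Ctsz, and leaving out P5 replicate 6 added Grn. Values near 0 changed sign in 6 genes that did not pass, over ranges of -0.048 to 0.10 for Cln3, -0.13 to 0.090 for Ctsa, -0.12 to 0.26 for Idua, -0.29 to 0.018 for Arsa, -0.037 to 0.23 for Galc and -0.17 to 0.46 for Tfeb as single samples were left out. Tfeb was removed by the filter at 1 CPM and has no value there.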
